A study of Homo sapiens with 12 samples.

Results

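The 8 subunits of the cytosolic chaperonin CCT were followed across the whole RNA-seq series: TCP1, CCT2, CCT3, CCT4, CCT5, CCT6A, CCT7 and CCT8. They were chosen by symbol, each symbol stood for 1 gene identifier, and all 8 were found among the 40295 genes of the count table. Every one of the 8 also passed the filter on low counts in each fit.

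CCT, also called TRiC, is a barrel of 2 stacked rings, and each ring holds 1 copy of every subunit. Newly made actin and tubulin enter its cavity and fold there with the energy of ATP, and a number of cell cycle and signalling proteins use it as well. Prefoldin hands clients to the barrel, and phosducin-like proteins bind it as cofactors. Because a ring needs its subunits in equal number, the balance among the 8 transcripts was examined beside the level of each.

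The series held 12 libraries in 5 groups. TOV-112D cells, an ovarian adenocarcinoma line whose own p53 carries the R175H substitution, were exposed for 3 h to the vehicle DMSO, to UCI-1001 or to UCI-1014, with 2 libraries each. UCI-1001 is a pyrimidine trione that the study put forward as a corrector of mutant p53, and UCI-1014 is an analog in which a methoxy group stands in place of the nitro group. UCI-1001 was used at 10 µM. The dose of UCI-1014 behind its RNA-seq libraries is not given in the sources used here, so the compounds are not known to have been matched in dose. The other 6 libraries are labelled Saos-2, an osteosarcoma line without p53. Of these, 3 came from the parental p53-null cells and 3 from cells engineered to express wild-type p53 (p53-WT) upon doxycycline, all labelled with an induction of 16 h. The p53-WT cells are therefore an engineered line set against its parent, and the labels do not say whether the libraries of a group came from separate cultures. P-values here then measure the spread between these libraries, which may be technical.

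Library totals ranged from 17762027 to 24629558 counts. Markers of the labelled tissues gave a mixed picture. Of 7 osteoblast genes, SP7 was at 0 counts in the 6 libraries labelled Saos-2, ALPL was at 0 to 12 counts, and the summed level of the list was 27.6 to 46 CPM (counts scaled to a common library total), against 55.5 to 62.5 CPM in TOV-112D, where COL1A1 made up 47.7 to 50.9 CPM. SPP1, however, was at 289 to 1009 counts in the libraries labelled Saos-2 and at 0 to 11 counts in TOV-112D, and RUNX2 was at 94 to 256 and at 92 to 170 counts. Of 7 epithelial and Mullerian genes, KRT18 was at 0 counts in all 6 TOV-112D libraries, and the summed level was 4.23 to 6.54 CPM there, against 777 to 999 CPM in the libraries labelled Saos-2. EPCAM and CDH1 went the other way, with 34 to 57 and 16 to 30 counts in TOV-112D and 0 to 2 and 2 to 6 counts in the libraries labelled Saos-2. Cell lines are therefore named below as the labels give them. The first replicates of p53-null and of p53-WT each stood apart from the other 2 of their group: the chi-square per degree of freedom between libraries was 22.1 to 36.9 for pairs with replicate 1 and 3.3 to 4.06 for the pairs without it, against 2.29 to 3.81 within the TOV-112D groups. The fold changes between p53-WT and p53-null cells are given with all libraries, and what changed without replicate 1 of both groups, a choice made after seeing the data, is given beside them.

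The subunit genes are scattered over the genome, and their coordinates here are those of GENCODE release 44 on GRCh38. TCP1, the alpha subunit, lies on chromosome 6 from 159778498 to 159789703 on the minus strand. CCT2, the beta subunit, spans 69585426 to 69601570 of chromosome 12 on the plus strand, and CCT3, the gamma subunit, spans 156308968 to 156367873 of chromosome 1 on the minus strand. CCT4 (delta) and CCT7 (eta) are both on chromosome 2, at 61868085 to 61888671 on the minus and 73233420 to 73253021 on the plus strand. CCT5 (epsilon) is on chromosome 5 from 10249929 to 10266389 on the plus strand. CCT6A (zeta) is on chromosome 7 from 56051685 to 56063989 on the plus strand, and CCT8 (theta) is on chromosome 21 from 29055805 to 29073797 on the minus strand.

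Of the 8 GENCODE gene starts, 5 sit back to back with the start of a protein-coding gene on the opposite strand, sought within 1000 bases. The distance between the starts was 109 bases for TCP1 and MRPL18, 53 for CCT4 and COMMD1, 32 for CCT5 and ATPSCKMT, 81 for CCT6A and PSPH, and 181 for CCT7 and PRADC1. The bases between the starts are shown for TCP1 and CCT4, the subunits with the highest rises under UCI-1014, and the upstream bases are shown for CCT2, the subunit with the deepest fall in p53-WT cells. They are read 5′ to 3′ on the strand of the subunit gene, from the RefSeq promoter table on GRCh38.p14, and capitals mark a CCAAT box.
TCP1, chr6:159789704-159789811, minus strand: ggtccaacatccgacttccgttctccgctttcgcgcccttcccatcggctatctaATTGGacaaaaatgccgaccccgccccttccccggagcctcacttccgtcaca
CCT4, chr2:61888672-61888723, minus strand: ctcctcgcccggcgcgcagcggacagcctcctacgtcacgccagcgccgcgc
CCT2, chr12:69585209-69585425, plus strand: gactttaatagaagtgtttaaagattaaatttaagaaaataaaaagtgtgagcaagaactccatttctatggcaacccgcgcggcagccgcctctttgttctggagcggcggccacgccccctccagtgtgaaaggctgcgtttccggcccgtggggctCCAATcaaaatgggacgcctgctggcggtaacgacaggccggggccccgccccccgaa

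The table held an entry for 7 of the 8 subunits, and CCT6A had none. In the 250 bases before the RefSeq start of each, 5 motifs were searched on both strands. A pair of inverted heat shock units (GAANNTTC or TTCNNGAA) was found before TCP1 and before none of the other 6, and 11.6% of 35116 promoter windows held one. The TCP1 match is shown with 9 bases on each side, the match in capitals. It lies 14 to 21 bases inside the start of MRPL18, the gene on the other side.
TCP1, chr6:159789817-159789842, minus strand: gtttgaggcGAAGGTTCaacctcttc
A full heat shock element, the pair with 1 more inverted unit at the same spacing, was found before no subunit and in 0.441% of all windows. The CCAAT box (CCAAT or ATTGG) was present before TCP1, CCT2, CCT3 and CCT8 and in 32% of all windows, and the GC box (GGGCGG or CCGCCC) was present before the same 4 subunits and in 42.6% of all windows. No subunit window held an E-box (CACGTG), which 6.34% of all windows held. For CCT5 and CCT7 the RefSeq start lies 608 and 888 bases inside the GENCODE gene, so that their windows do not reach the shared starts described above. For CCT3 the RefSeq start lies 29581 bases inside the GENCODE gene. Its window and the search for its neighbours therefore refer to different starts. TSACC, which overlaps CCT3 on the other strand, starts 30559 bases from the GENCODE start of CCT3. A match is a string of letters, and binding was not measured.

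Levels were compared between subunits within libraries as TPM, a relative abundance in which the length of each transcript is taken into account. In DMSO-treated TOV-112D cells, CCT3 was highest at 667.1 ± 12.7 TPM (SD, n = 2) and CCT6A lowest at 249.2 ± 4.38 TPM. The order from highest to lowest was CCT3, CCT7, TCP1, CCT5, CCT8, CCT2, CCT4 and CCT6A, and of the neighbours in that order CCT5 and CCT8 alone overlapped between libraries. In p53-null cells, CCT5 was highest at 1051.0 ± 35.7 TPM (SD, n = 3) and CCT8 lowest at 324.6 ± 12 TPM. TCP1 followed CCT5 at 692.2 ± 33.6 TPM, while CCT2, CCT7 and CCT3 overlapped in the middle of the order, as did CCT4 and CCT8 at its foot. The p53-WT order was CCT7, CCT5, CCT3, TCP1, CCT4, CCT6A, CCT2 and CCT8, from 468.9 ± 12.4 to 189.2 ± 21.9 TPM. There CCT7 overlapped with CCT5, CCT6A with CCT2, and CCT2 with CCT8, and CCT5 was the highest in p53-WT replicate 3. These orders depended on how a gene's level was taken. When the most abundant transcript of each gene stood for the gene, 36 of the 40 group levels moved by more than 1 SD. CCT7 then had the highest mean with DMSO at 498.6 ± 16.6 TPM, beside CCT3 at 485.4 ± 14 TPM, and TCP1 was in place 7 of 8 at 252.8 ± 15.8 TPM. CCT7 and CCT3 overlapped there, at 486.9 and 510.4 TPM against 495.3 and 475.5 TPM. In p53-null cells CCT2, CCT3 and CCT7, at 538.2 to 564.4 TPM, then stood above CCT5 at 473.4 ± 13.9 TPM, and TCP1 was lowest at 154.6 ± 4.3 TPM. Summed over transcripts, the ring was made of unequal transcript levels in every library. The highest subunit exceeded the lowest by 2.26-fold to 3.48-fold, with the extremes in p53-WT replicate 2 and UCI-1014 replicate 1.

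After 3 h, 4 of the 8 subunits were higher with UCI-1001 than with DMSO. TCP1 rose most, by 1.48-fold, and CCT4, CCT6A and CCT3 rose by 1.12-fold to 1.23-fold. Over all genes tested, 7.72% were higher and 5.23% lower. The median log2 fold change of the 8 subunits was 0.14, against -0.002 over all 14971 genes tested. In bulk RNA, a change in RNA per cell and a change in which cells make up the sample cannot be told apart.

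TCP1 stood at 517 and 519 CPM in the DMSO libraries and at 746 and 791 CPM with UCI-1001. Its log2 fold change was 0.57 ± 0.05 (SE), with an adjusted p of 9.4e-05 by the quasi-likelihood test of edgeR. CCT4 stood at 493 and 505 CPM with DMSO and at 596 and 630 CPM with UCI-1001, which is 0.30 ± 0.04 (SE) on the log2 scale (edgeR adjusted p = 0.00108). For both genes the treated libraries lay above both controls by more than the replicates differed. CCT6A was at 359 CPM in each control and at 418 and 445 CPM with UCI-1001, which is 0.27 ± 0.04 (SE) on the log2 scale (edgeR adjusted p = 0.00186). CCT3 moved from 784 and 782 CPM to 873 and 877 CPM, a log2 fold change of 0.16 ± 0.03 (SE, edgeR adjusted p = 0.00563). With an offset for transcript length CCT6A did not pass (log2 fold change 0.23, adjusted p = 0.0575). The rise of CCT3 was narrower than that of CCT6A, and CCT3 missed the threshold when either DMSO library was left out, with adjusted p = 0.0762 and 0.0768.

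The other 4 subunits did not pass the test with UCI-1001. CCT2 stood at 427 and 424 CPM with DMSO and at 445 and 483 CPM with the compound (log2 fold change 0.12, 95% interval 0.03 to 0.21, edgeR adjusted p = 0.0727). CCT7 stood at 618 and 641 CPM and at 675 and 682 CPM (log2 fold change 0.11, interval 0.04 to 0.18, edgeR adjusted p = 0.0542). CCT5 stood at 374 and 373 CPM and at 393 and 411 CPM (log2 fold change 0.11, interval 0.03 to 0.19, edgeR adjusted p = 0.083). In these 3 genes, as in CCT8, both treated libraries were above both controls. All 3 passed with DESeq2 and with no filter on low counts, which gave 7 of 8 subunits. Of all 24329 genes, 1031 were higher with DESeq2 and 1563 with no filter. CCT8 was at 446 CPM in each control and at 453 and 472 CPM with UCI-1001, a log2 difference of 0.05 with an interval from -0.03 to 0.13 (edgeR adjusted p = 0.385). The count of called subunits was 2 in a DESeq2 fit of all 12 libraries, where 325 of 26856 genes were higher and 121 lower.

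**Figure D1:**
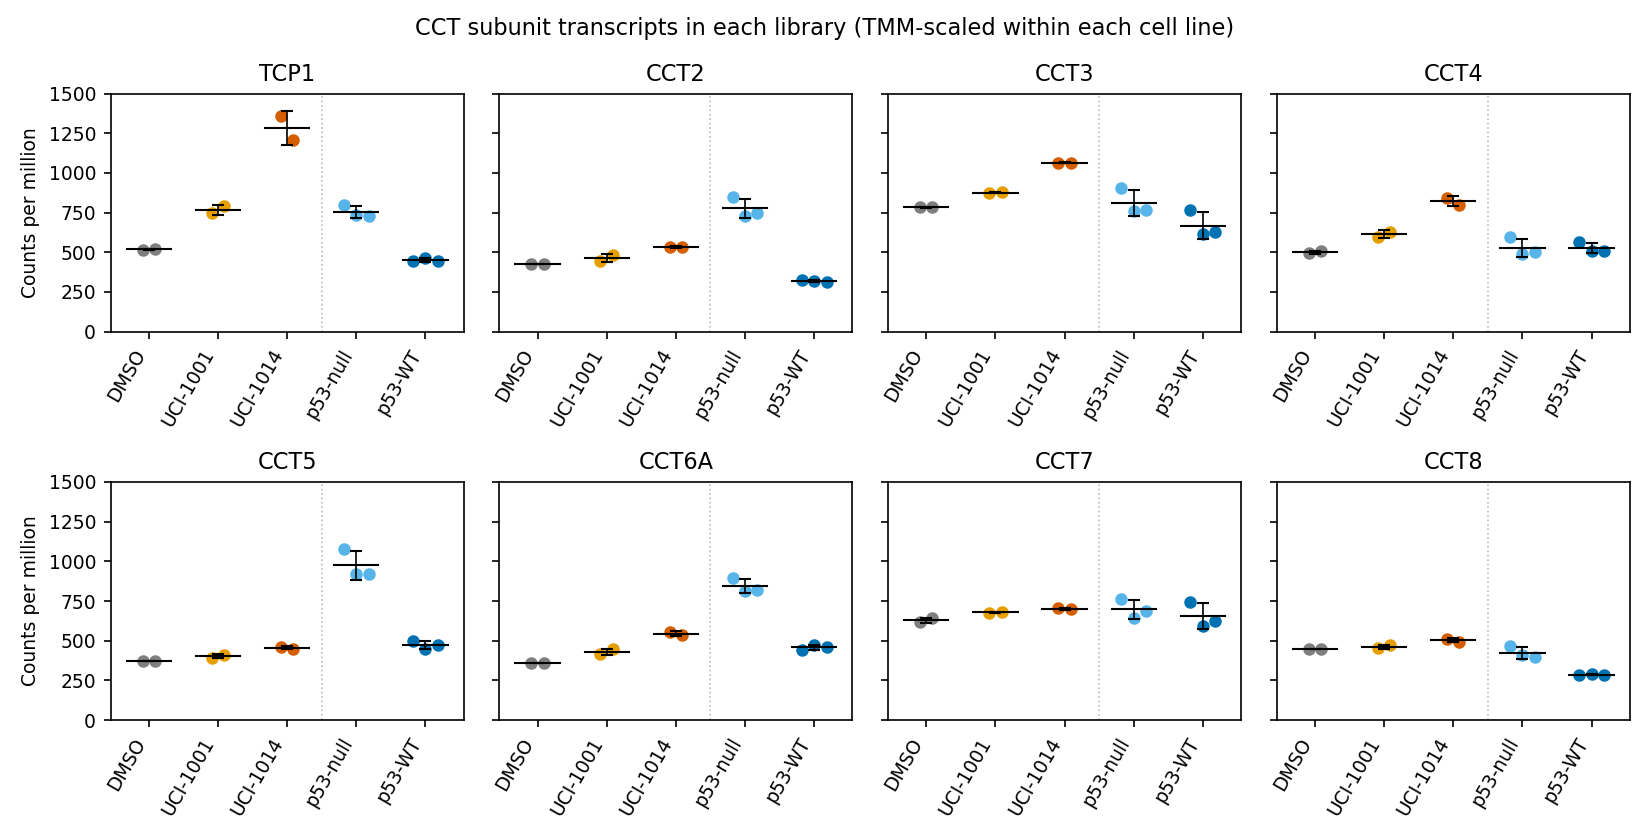
CPM, counts scaled to a common library total (y axis), of the 8 subunits in each library, by group (x axis), scaled by TMM within each cell line. Points are libraries, the horizontal bar is the group mean and the whisker 1 SD. TCP1 runs from 517 CPM with DMSO to 1357 CPM with UCI-1014, CCT7 stays between 618 and 705 CPM in TOV-112D, and CCT2, CCT5 and CCT6A lie lower in p53-WT than in p53-null libraries.

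All 8 subunits were higher with UCI-1014 than with DMSO, where 22.7% of all genes tested were higher and 21.4% lower. The rise ran from 1.11-fold for CCT7 to 2.48-fold for TCP1, and the median log2 fold change of the 8 was 0.38, against -0.013 over all genes tested. TCP1 alone passed with a log2 fold change above 1, as did 4.5% of all genes. With no scaling beyond the total count, the median of all genes tested moved to -0.152 and the higher share of all called genes moved from 51.5% to 30%. The directions of the 8 subunits were the same under that scaling, but CCT7 and CCT8 no longer passed, with log2 fold changes of 0.02 and 0.03. A DESeq2 fit of all 12 libraries called 5 of the 8, where 1685 of 26856 genes were higher and 1772 lower.

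TCP1 reached 1357 and 1208 CPM with UCI-1014 from 517 and 519 CPM, a log2 fold change of 1.31 ± 0.05 (SE, edgeR adjusted p = 3.5e-08). CCT4 reached 844 and 800 CPM from 493 and 505 CPM, a log2 fold change of 0.72 ± 0.04 (SE, edgeR adjusted p = 3.6e-07). CCT6A reached 557 and 533 CPM from 359 CPM in each control, a log2 fold change of 0.60 ± 0.04 (SE, edgeR adjusted p = 1.2e-06). These are the 3 subunits that had also moved most with UCI-1001, with which they share the DMSO libraries. CCT3 reached 1065 and 1060 CPM from 784 and 782 CPM (log2 fold change 0.44 ± 0.03 SE, edgeR adjusted p = 1.2e-06). CCT2 reached 536 and 530 CPM from 427 and 424 CPM (0.32 ± 0.04 SE on the log2 scale, edgeR adjusted p = 1.1e-04). CCT5 reached 463 and 450 CPM from 374 and 373 CPM (0.29 ± 0.04 SE on the log2 scale, edgeR adjusted p = 1.0e-04). In each of these the treated and control libraries did not overlap. Between 2 and 2 libraries such a gap is weak by itself, and the share of all genes that show it was not counted. ACTB, which did not pass (log2 fold change -0.02), showed it as well.

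The smallest rises were those of CCT8 and CCT7. CCT8 went from 446 CPM in each control to 511 and 494 CPM, a log2 fold change of 0.17 ± 0.04 (SE, edgeR adjusted p = 0.00268). CCT7 went from 618 and 641 CPM to 705 and 697 CPM, a log2 fold change of 0.16 ± 0.03 (SE, edgeR adjusted p = 0.00286). On the same scale TCP1 stood at 1.31. CCT7 was also the one subunit that missed the threshold when the first DMSO library was left out (log2 fold change 0.13, adjusted p = 0.0565).

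**Figure D2:**
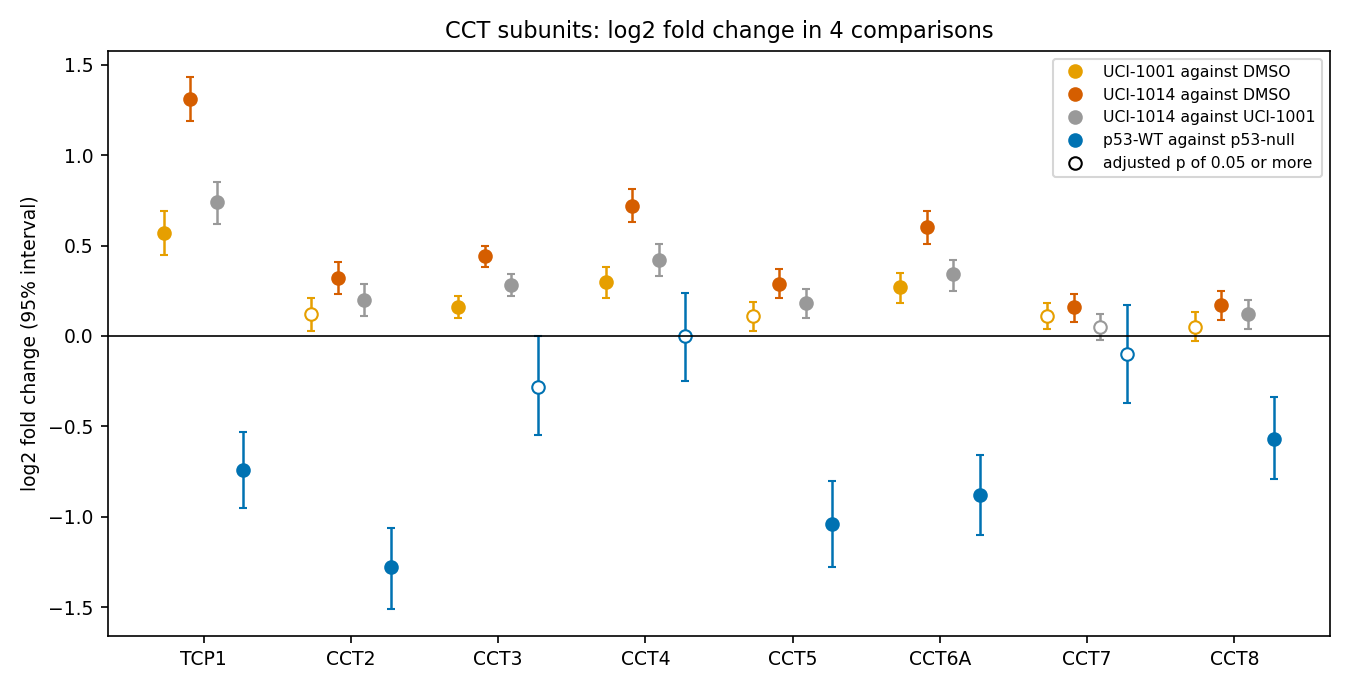
Log2 fold changes (y axis) of the 8 subunits (x axis) in the 4 comparisons within a cell line, with 95% intervals. Filled points have an adjusted p under 0.05. With UCI-1014 the points run from 0.16 for CCT7 to 1.31 for TCP1, and in p53-WT cells from -1.28 for CCT2 to -0.0033 for CCT4, whose sign turns under other scalings.

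Set against UCI-1001, the UCI-1014 libraries held more of 7 subunits, where 16.2% of all genes were higher and 11.5% lower. The difference was 1.67-fold for TCP1, 1.34-fold for CCT4, 1.26-fold for CCT6A and 1.21-fold for CCT3, and 1.09-fold to 1.15-fold for CCT2, CCT5 and CCT8. In log2 terms the TCP1 difference was 0.74, with an interval from 0.62 to 0.85 (edgeR adjusted p = 6.4e-06). CCT8 was the least of the 7, with a log2 difference of 0.12 (edgeR adjusted p = 0.0295). CCT7 did not pass: its difference was 0.05 with an interval from -0.02 to 0.12 (edgeR adjusted p = 0.309). Without scaling beyond the total count, the median of all genes in this comparison moved from -0.004 to -0.127, the higher share of called genes from 58.6% to 25.4%, 4 subunits passed, and CCT7 and CCT8 turned to -0.08 and -0.0037. A DESeq2 fit of all 12 libraries called 3, where 840 of 26856 genes were higher and 398 lower.

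Ratios of counts within a library need no scaling between libraries, and they show how unevenly the subunits moved. The count of TCP1 over that of CCT4 was 1.05 and 1.03 with DMSO, 1.25 and 1.26 with UCI-1001 and 1.61 and 1.51 with UCI-1014. For CCT7 over CCT4 the ratio was 1.25 and 1.27 with DMSO, 1.13 and 1.08 with UCI-1001 and 0.835 and 0.872 with UCI-1014. TCP1 thus gained on CCT4 while CCT7 lost to it, and neither ratio overlapped between the groups. CCT6A over CCT4 was 0.729 and 0.71 with DMSO, 0.702 and 0.707 with UCI-1001 and 0.66 and 0.667 with UCI-1014, so that these 2 subunits kept closer to each other.

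In length-corrected terms the summed level of the 8 transcripts was 3565 and 3512 TPM with DMSO, 4046 and 4186 TPM with UCI-1001 and 5187 and 4939 TPM with UCI-1014. TCP1 took 13.8% and 14% of that sum with DMSO, 17.4% and 17.6% with UCI-1001 and 24.8% and 23.5% with UCI-1014. Summed over its transcripts, TCP1 stood behind CCT3 and CCT7 with DMSO and highest with UCI-1014, at 1224.0 ± 87 TPM (SD, n = 2). Its most abundant transcript alone reached 550.8 ± 71.9 TPM with UCI-1014, below 624 ± 28.3 TPM for CCT3, so the first place rests on the sum. CCT6A stayed the lowest of the 8 in all 6 TOV-112D libraries although it was among those that rose most. The coefficient of variation over the 8 subunits was 30.5% and 30.8% with DMSO, 33.8% and 31.3% with UCI-1001 and 47% and 43.9% with UCI-1014.

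**Figure D3:**
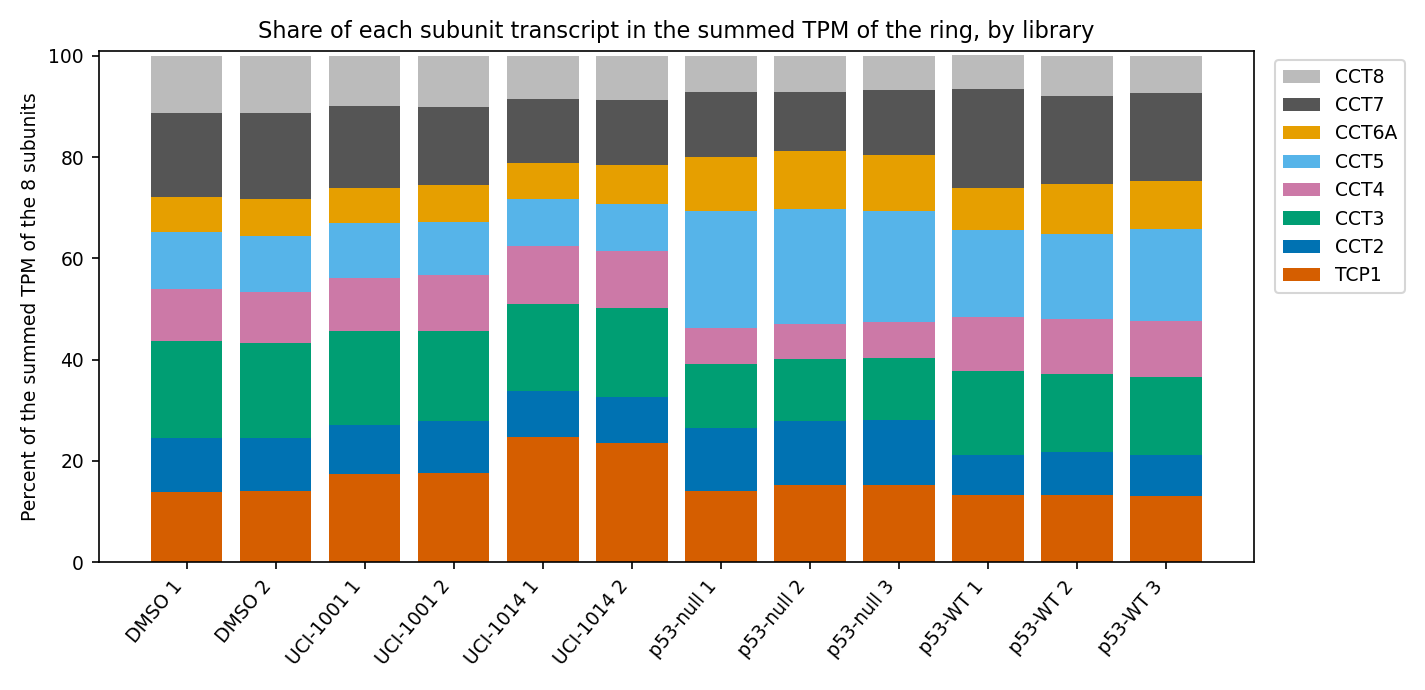
Share of each subunit in the summed TPM of the 8 (y axis, percent) in each library (x axis). The TCP1 segment widens from 13.8% in DMSO replicate 1 to 24.8% in UCI-1014 replicate 1, and the CCT5 segment is 22% to 23% in p53-null and 16.8% to 18.2% in p53-WT libraries.

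In p53-WT cells 5 of the 8 subunits were lower than in p53-null cells, and none was higher. Over all genes, 32.1% were lower and 32.9% higher, so the share among the subunits is to be read against a comparison in which much of the transcriptome moved. CCT2 fell most, to 0.411 of its p53-null level, and CCT5, CCT6A, TCP1 and CCT8 fell to between 0.485 and 0.674. CCT3, CCT7 and CCT4 did not pass. The median log2 fold change of the subunits was -0.65, against -0.013 over all 15067 genes tested.

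CCT2 stood at 846, 731 and 750 CPM in the p53-null libraries and at 324, 321 and 312 CPM in the p53-WT libraries, a log2 fold change of -1.28 ± 0.10 (SE, edgeR adjusted p = 2.4e-06). CCT5 stood at 1081, 922 and 919 CPM and at 496, 447 and 476 CPM, a log2 fold change of -1.04 ± 0.11 (SE, edgeR adjusted p = 1.6e-05). These were the 2 subunits that fell by more than 1 on the log2 scale, as did 12.6% of all genes. CCT6A stood at 894, 815 and 820 CPM and at 440, 476 and 458 CPM, a log2 fold change of -0.88 ± 0.10 (SE, edgeR adjusted p = 2.6e-05). TCP1 stood at 796, 735 and 726 CPM and at 447, 462 and 444 CPM, a log2 fold change of -0.74 ± 0.09 (SE, edgeR adjusted p = 7.6e-05). CCT8 stood at 468, 411 and 397 CPM and at 287, 291 and 282 CPM, a log2 fold change of -0.57 ± 0.10 (SE, edgeR adjusted p = 6.9e-04). All 3 p53-WT libraries lay below all 3 p53-null libraries for each of these 5 genes. GNB1, which did not pass (log2 fold change -0.14), showed the same separation, so it is weak by itself. Without replicate 1 of both groups, all 5 still passed, with log2 fold changes of -1.22 for CCT2, -0.99 for CCT5, -0.81 for CCT6A, -0.69 for TCP1 and -0.49 for CCT8, where 35.7% of all genes were lower and 36.7% higher.

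The 3 subunits that did not pass overlapped between the groups. CCT3 stood at 903, 757 and 769 CPM in p53-null and at 765, 614 and 625 CPM in p53-WT libraries, a log2 fold change of -0.28 ± 0.12 (SE, edgeR adjusted p = 0.0712). In both groups the first replicate was the highest, and without replicate 1 of both groups CCT3 passed at -0.30 (adjusted p = 0.00032), which gave 6 lower subunits. CCT7 stood at 764, 646 and 687 CPM and at 747, 592 and 622 CPM, a log2 fold change of -0.10 with an interval from -0.37 to 0.17 (edgeR adjusted p = 0.502). CCT4 stood at 593, 489 and 503 CPM and at 565, 507 and 509 CPM, a log2 fold change of -0.0033 with an interval from -0.25 to 0.24 (edgeR adjusted p = 0.981), which became 0.02 with RLE scaling. With no scaling beyond the total count the median of all genes moved to -0.164, and CCT3 then passed at -0.43.

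Within libraries, the CCT2 count was 1.43 to 1.5 times that of CCT4 in p53-null and 0.572 to 0.634 times in p53-WT cells. For CCT5 over CCT4 the ratio was 1.82 to 1.89 and then 0.877 to 0.935, and for CCT6A over CCT4 it was 1.51 to 1.67 and then 0.778 to 0.939. CCT7 over CCT4, by contrast, was 1.29 to 1.36 and then 1.17 to 1.32, and the groups overlapped. The subunits therefore fell unequally whatever the scaling. The summed level of the 8 was 4596 to 4723 TPM in p53-null and 2470 to 2655 TPM in p53-WT libraries. In CPM, which carry the TMM scaling that TPM lack but no correction for length, the sum was 5505 to 6345 and then 3710 to 4071, a smaller fall. Unlike in CPM, the groups did not overlap in TPM for CCT3, CCT4 and CCT7, with CCT4 at 319.4 to 336.4 and then 264.3 to 290.2 TPM. CCT2 held 12.5% to 12.8% of the summed TPM in p53-null and 7.82% to 8.47% in p53-WT libraries, and CCT5 held 22% to 23% and 16.8% to 18.2%. CCT7 held 11.7% to 12.9% of the sum in p53-null and 17.3% to 19.5% in p53-WT libraries.

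**Figure D4:**
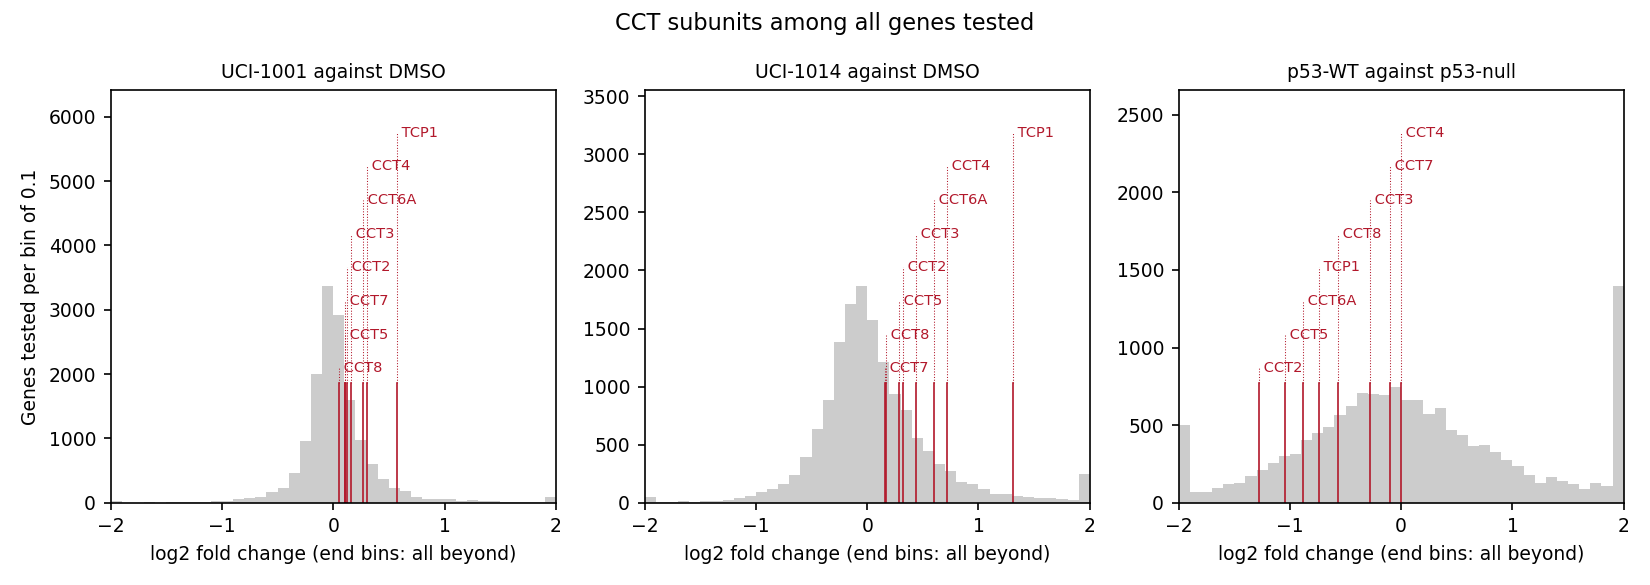
Number of genes tested per bin of 0.1 (y axis) by log2 fold change (x axis) in 3 comparisons, with end bins holding all values beyond 2 in size, and the 8 subunits as red lines. All 8 lie above 0 with each compound, though 4 of them did not pass with UCI-1001, and in p53-WT cells they spread from -1.28 to 0.

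Genes of like abundance give another view of the same comparisons, as a description. Of 215 other genes whose mean level in TOV-112D lay between 411 and 907 CPM, the range of the subunits, 13.5% were higher and 6.05% lower with UCI-1001, and 27% were higher and 35.8% lower with UCI-1014. Their median log2 fold change with UCI-1014 was -0.053. Of 233 such genes in the Saos-2 libraries, between 356 and 739 CPM, 25.8% were lower and 35.6% higher in p53-WT cells, with a median of 0.155.

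The starting levels of the 2 cell lines were set side by side with a common scaling of all 12 libraries. In DMSO-treated TOV-112D cells 5 subunits were lower than in p53-null cells, where 36.9% of all genes were lower and 37% higher. Cell line, p53 status, medium, DMSO, time and induction go together in this contrast and cannot be told apart. CCT5 was at 0.357, CCT6A at 0.396, CCT2 at 0.511 and TCP1 at 0.64 of the p53-null level, each with an edgeR adjusted p between 6.2e-09 and 6.3e-06. CCT7, at 0.838, passed with an adjusted p of 0.0347. CCT3, CCT4 and CCT8 did not pass, with log2 differences of -0.15, -0.19 and -0.03, and the sign of CCT8 turned with no scaling beyond the total count. CCT5 showed the widest gap, at 364 ± 0.855 CPM (SD, n = 2) against 1019 ± 91.8 CPM (SD, n = 3).

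The deposited transcript estimates gave a further view of 3 subunits, picked after their values were seen. CCT3 carried a transcript annotated as a substrate of nonsense-mediated decay, ENST00000368258, at 91.25 to 195.4 TPM in the TOV-112D libraries and at 0 to 1.524 TPM in the libraries labelled Saos-2. It made 13.5% to 22.3% of the CCT3 level in TOV-112D. Its level with UCI-1014, 160.3 and 195.4 TPM, was above that with DMSO, 91.25 and 117 TPM, and the coding transcript ENST00000295688 moved from 495.3 and 475.5 TPM to 644 and 604 TPM. CCT5 showed a coding transcript, ENST00000515390, at 0 to 12.49 TPM in TOV-112D and 57.69 to 165.2 TPM in the Saos-2 libraries. A CCT5 transcript with a retained intron, ENST00000508451, stood at 85.5 to 108.9 TPM in TOV-112D, at 345.2 to 388.5 TPM in p53-null and at 151.5 to 178.4 TPM in p53-WT libraries.

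For TCP1, the most abundant transcript in TOV-112D, ENST00000321394, moved from 264 and 241.6 TPM with DMSO to 601.6 and 499.9 TPM with UCI-1014. Another coding transcript, ENST00000392168, moved from 72.86 and 86.75 TPM to 263 and 251.7 TPM. The share of ENST00000321394 was 53.5% and 49.2% with DMSO and 46.8% and 43% with UCI-1014. A transcript without a defined coding region, ENST00000543532, moved from 104.7 and 97.54 TPM to 277.3 and 278.5 TPM. The coding transcript ENST00000420894 moved from 16.84 and 26.55 TPM to 79.35 and 78.6 TPM. The higher level with UCI-1014 was therefore spread over several transcripts, including ENST00000543532. In p53-null libraries ENST00000392168 led with 37.6% to 40.3% of the TCP1 level. Such splits between overlapping transcripts are estimates without counts of reads unique to each.

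**Figure D5:**
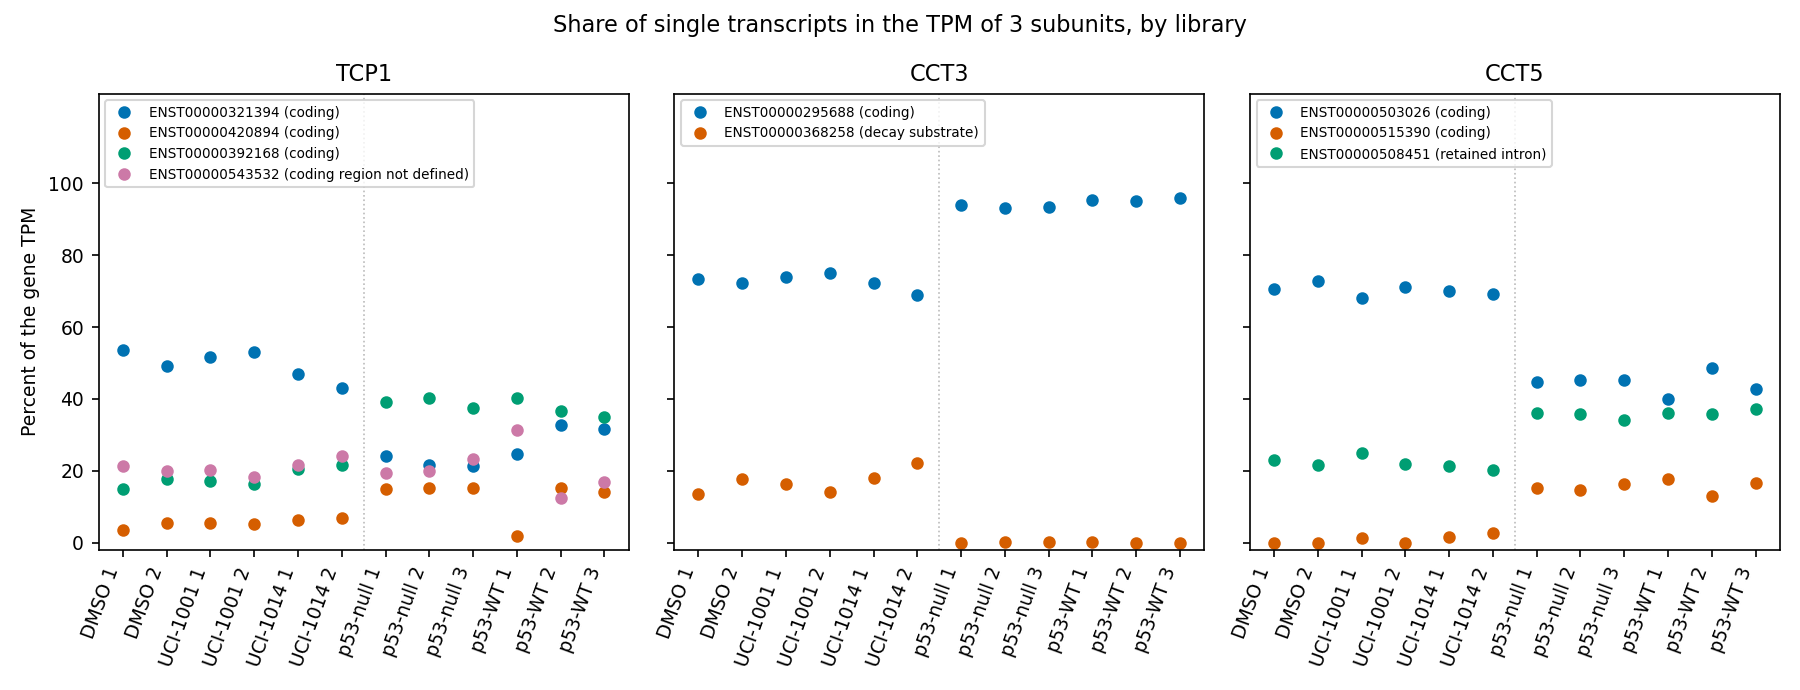
Share of single transcripts in the TPM of TCP1, CCT3 and CCT5 (y axis, percent) in each library (x axis), for transcripts that reach 10% in a library. The CCT3 decay transcript lies at 13.5% to 22.3% in TOV-112D and near 0 in the libraries labelled Saos-2, and the leading TCP1 transcript differs between the 2 lines.

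Few counts went to the copies of the subunit genes. Of 13 pseudogenes named after a subunit, 8 had any count, and the highest, CCT6P3, reached 0.71% of the CCT6A count. CCT6B, the paralog of CCT6A that is known from testis, had 4 to 16 counts per library. Adding the pseudogene counts to the subunits changed no count of called subunits. TCP1 is overlapped by ACAT2 on the other strand and holds the small nucleolar RNAs SNORA20 and SNORA29, CCT3 is overlapped by TSACC, and CCT6A holds SNORA22B and SNORA15. Whether strand was used in counting is not given in the sources used here, so reads from such overlaps cannot be assigned with certainty.

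The genes that share a start with a subunit, looked up after the subunit values were seen, did not follow it in every case. MRPL18, a protein of the mitochondrial ribosome that starts beside TCP1, stood at 60 and 59.9 CPM with DMSO, 134 and 152 CPM with UCI-1001 and 385 and 334 CPM with UCI-1014. It rose by 6-fold with UCI-1014 (log2 fold change 2.58 ± 0.08 SE, edgeR adjusted p = 5.5e-09), beside 1.31 for TCP1 on the same scale. In p53-WT cells MRPL18 was higher, at 224, 180 and 174 CPM against 127, 92.3 and 105 CPM (edgeR adjusted p = 6.2e-04), where TCP1 was lower. PSPH, a serine synthesis enzyme that starts beside CCT6A, doubled from 27.4 and 26.1 CPM with DMSO to 55 and 52.3 CPM with UCI-1014 (edgeR adjusted p = 9.0e-07). It was also higher in p53-WT cells, by 2.05-fold (edgeR adjusted p = 2.2e-05), where CCT6A was lower.

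COMMD1, beside CCT4, did not pass with either compound, at log2 fold changes of -0.15 with each, while CCT4 rose. In p53-WT cells COMMD1 was higher by 1.69-fold, at 33.6 ± 6.88 against 19.9 ± 3.53 CPM (SD, n = 3, edgeR adjusted p = 0.00312), while CCT4 did not pass. ATPSCKMT, beside CCT5, rose with UCI-1014 from 11.2 and 11.3 CPM to 19.2 and 20.6 CPM (edgeR adjusted p = 3.8e-05) and did not pass in p53-WT cells, at a log2 fold change of -0.11. PRADC1, beside CCT7, fell with UCI-1014 by 0.50 on the log2 scale (edgeR adjusted p = 0.00504) and in p53-WT cells by 1.80 (edgeR adjusted p = 8.3e-06). Pairs that share a start therefore moved together in some comparisons and apart in others. None of the calls of these 5 neighbours in p53-WT cells changed without replicate 1 of both groups.

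Genes that act around the chaperonin were counted in lists. Each count is to be read against the share of all genes tested, which was 7.72% higher and 5.23% lower under UCI-1001, 22.7% higher and 21.4% lower under UCI-1014, and 32.9% higher and 32.1% lower in p53-WT cells. Of 9 prefoldin and prefoldin-like subunits, 1 rose with UCI-1001, and 1 rose and 3 fell with UCI-1014. PDRG1, a prefoldin-like subunit, rose from 32.4 ± 1.19 CPM (SD, n = 2) to 43.1 ± 0.905 CPM with UCI-1001 and 48.2 ± 1.1 CPM with UCI-1014 (edgeR adjusted p = 0.00175 and 3.5e-05). PFDN5 fell with UCI-1014 from 116 ± 1.86 to 83.8 ± 5.78 CPM (edgeR adjusted p = 4.5e-05), and PFDN6 fell by 0.71 and URI1 by 0.18 on the log2 scale. In p53-WT cells 1 of the 9 was higher and 4 were lower, with PFDN5 at a log2 fold change of 0.43, its groups overlapping, and PDRG1, URI1 and VBP1 at -0.72 to -0.78. Without replicate 1 of both groups 3 were higher and 5 lower, since PFDN1, PFDN4 and PFDN2 then passed. The median of the list was 0.01 with UCI-1001, -0.01 with UCI-1014 and -0.25 in p53-WT cells.

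Of 4 phosducin-like cofactors, 3 were tested. TXNDC9 rose with UCI-1001 by 0.23 on the log2 scale (edgeR adjusted p = 0.0209), and none passed with UCI-1014. In p53-WT cells PDCL3 rose from 31.3 ± 0.858 to 131 ± 8.66 CPM (SD, n = 3, edgeR adjusted p = 1.0e-07) and PDCL fell by 0.95 on the log2 scale.

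Clients of the ring, the proteins that fold in it, were counted in the same way. Of 13 actin and tubulin genes, none rose and 4 fell with UCI-1001, 1 rose and 7 fell with UCI-1014, and 2 rose and 9 fell in p53-WT cells. The lower share of all genes was 5.23%, 21.4% and 32.1% in these comparisons, and without replicate 1 of both groups 10 fell in p53-WT cells, ACTB being the one added. TUBB, a beta-tubulin whose 8 identifiers were summed, stood at 3198 ± 58.5 CPM with DMSO, 2809 ± 3.28 CPM with UCI-1001 and 2265 ± 67.7 CPM with UCI-1014 (SD, n = 2). TUBB3 rose with UCI-1014 by 0.37 on the log2 scale (edgeR adjusted p = 8.8e-06). In p53-WT cells TUBA1B fell from 4031 ± 325 to 749 ± 86.4 CPM (SD, n = 3, edgeR adjusted p = 1.1e-07), while ACTG1, a cytoplasmic actin, rose from 4318 ± 234 to 6044 ± 532 CPM (edgeR adjusted p = 0.00228). The median of this list was -0.09, -0.15 and -0.69 in the 3 comparisons.

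Of the 5 tubulin folding cofactors, which take over tubulin after CCT, none passed with UCI-1001, TBCC, TBCD and TBCB fell with UCI-1014 by 0.15 to 0.25 on the log2 scale, and TBCA alone passed in p53-WT cells, higher by 0.30, with TBCD lower by 0.26 as well when replicate 1 of both groups was left out. Of 13 other proteins known to fold on CCT, 1 rose and 2 fell with UCI-1001, and 1 rose and 6 fell with UCI-1014. STAT3 was the one that rose, by 0.15 and 0.24 on the log2 scale, and CCNE1 and FZR1 fell with both compounds, by 0.38 and 0.30 with UCI-1001 and by 0.68 and 0.60 with UCI-1014. In p53-WT cells 4 of the 13 rose and 5 fell, and 8 fell without replicate 1 of both groups. The mitotic genes PLK1 and CDC20 fell by 3.53 and 2.53 on the log2 scale there.

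Of 7 other chaperonins and chaperonin-like genes, 6 were tested, and 3 rose with each compound. HSPD1 and HSPE1, the mitochondrial chaperonin and its lid, rose with UCI-1014 from 985 ± 15 to 4206 ± 177 CPM and from 158 ± 2.71 to 394 ± 8.05 CPM (SD, n = 2, edgeR adjusted p = 6.2e-10 and 4.0e-09). BBS10, a chaperonin-like gene, rose by 0.31 on the log2 scale (edgeR adjusted p = 0.0312), and the other 3 of the 6 tested did not pass. In p53-WT cells HSPD1, MKKS and HSPE1 were among 4 that fell, by 0.55 to 0.70 on the log2 scale. Without replicate 1 of both groups BBS10 no longer passed, CCT6B passed as higher, and the others kept their calls.

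All 8 inducible heat shock genes rose with each compound, with medians of 3.39 and 5.11 on the log2 scale, beside 0.57 and 1.31 for TCP1. HSPA6 rose most, by 10.02 and 11.42 on that scale, from a low 0.526 CPM with DMSO. HSPA1A, an inducible HSP70 whose 5 identifiers were summed and whose reads are hard to part from those of HSPA1B, stood at 217 ± 13.6 CPM with DMSO, 6779 ± 503 CPM with UCI-1001 and 24482 ± 1002 CPM with UCI-1014 (SD, n = 2). In p53-WT cells 5 of the 8 rose and 3 fell. HSPA6 rose most, by 4.95 on the log2 scale from 0.501 CPM in p53-null cells, and HSPB1 rose by 2.13. HSPH1 and DNAJB1 fell by 0.54 and 0.47, and without replicate 1 of both groups the calls of the 8 were the same.

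Genes whose pattern was most like that of the ring were sought among 8762 genes of at least 10 CPM, by the Pearson correlation of log2 levels with the summed subunits over 12 libraries, each centred on its cell line. They were CKS2 (r = 0.993), M6PR (0.991), MED10 (0.99), SPOP (0.985) and LIN52 (0.984), and 3.42% of the genes were above 0.9. The 12 points share their 5 groups, so these values describe the order of the group means more than 12 separate readings. CKS2, a small partner of cyclin-dependent kinases, moved by 0.96 and 2.04 on the log2 scale with the compounds and by -1.90 in p53-WT cells. Among the subunits, r with the sum was 0.971 for CCT6A and 0.936 for TCP1, 0.898 to 0.916 for CCT2, CCT3, CCT5 and CCT8, and 0.627 and 0.66 for CCT4 and CCT7. Each subunit is itself part of that sum, so its r is not comparable with those of the other genes.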

How the data were processed

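RNA was sequenced by a service company, and the authors quantified the reads against GRCh38 with kallisto 0.48.0. The authors summed estimated counts of transcripts per Ensembl gene and deposited the integer counts, not normalized, for 40295 genes. They also deposited files of expected (estimated) counts, effective lengths and TPM for 187626 transcripts per library. Their own tests used DESeq2 1.38.3. From the deposited counts, edgeR 4.0.16 in R 4.3.3 (TMM, filterByExpr defaults, glmQLFit, glmQLFTest, Benjamini-Hochberg over all genes tested) was run on the 6 libraries of each cell line, and on all 12 for the contrast between lines. A gene was called at an adjusted p under 0.05. CPM use the TMM-scaled library total, except for markers, which use the plain total. TPM entered no test. Libraries of a group varied by 3.97% (TOV-112D) and 13% (Saos-2), as edgeR's common biological coefficient of variation, and intervals are 95%. The test was tried on simulated counts. DESeq2 1.42.0 and other scalings, filters, offsets, blocks and left-out libraries were alternatives. The subunits, the lists, the tests and the rule for named genes were chosen with earlier results of these data known: all 8 subunits, up to 3 called genes with the largest rise or fall per list and comparison, and the 5 genes most like the ring. Of the compounds' contrasts, both use the same DMSO libraries. Python 3.11.15, numpy 2.4.6, pandas 2.3.3 and matplotlib 3.10.9 did the rest.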

Additional observations from a re-analysis of the deposited data

How the results depend on the processing

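The number of subunits called higher with UCI-1001 was 4, and it became 7 with DESeq2, 7 with no filter on low counts and 2 in a DESeq2 fit of all 12 libraries. Over all genes, 1156 of 14971 were higher in the main fit and 1031 of 24329 with DESeq2. With no filter 1563 of 24329 were higher, and 325 of 26856 in the DESeq2 fit of all 12 libraries. With that last fit, which takes its spread from both cell lines, 5 subunits were higher with UCI-1014 and 3 were higher with UCI-1014 than with UCI-1001. Of all 26856 genes, 1685 and 840 were higher there. With no scaling beyond the total count, 4 were higher with UCI-1014 than with UCI-1001, and CCT7 and CCT8 turned to -0.08 and -0.0037 on the log2 scale. Of all 14971 genes, 1501 were higher and 4404 lower under that scaling. Leaving out single libraries gave 3 to 5 called subunits with UCI-1001, 7 to 8 with UCI-1014, 6 to 7 between the compounds, 5 to 6 in p53-WT cells and 4 to 6 between the lines. CCT4 in p53-WT cells, at -0.0033, turned to 0.01 with DESeq2, 0.02 with DESeq2 on all 12 libraries, 0.02 with RLE scaling, 0.0001 with the replicate block, 0.04 without replicate 1 of both groups and -0.05 to 0.08 without single libraries, and passed in none of these. CCT8 between the lines turned to 0.05 with no scaling, 0.01 with a transcript length offset and 0.03 without p53-null replicate 1, and the cause of these turns was not tested. Over the other settings and genes, the fold changes of single subunits kept direction and side of the threshold in 589 cases, gained it in 20 and lost it in 29. The replicate numbers did not pair the libraries: deviations of same-numbered libraries correlated at -0.13 to 0.0474 in TOV-112D and 0.0478 to 0.16 in Saos-2. With the replicate block, 4 and 8 subunits were higher with the compounds, 6 between the compounds and 6 lower in p53-WT cells, where CCT3 passed at -0.28 (adjusted p = 0.00519), and with the UCI-1014 numbers crossed, 7 between the compounds. Of all 14971 genes, the block called 909 and 3233 higher with the compounds and 2185 between them, or 2618 with the numbers crossed. In p53-WT cells it called 4982 of 15067 lower. With the most abundant transcript in place of the sum, 36 of 40 TPM levels moved by more than 1 SD, and the order of the subunits changed. The length offset covered 7 subunits, since the CCT7 count was not within 1 count of its transcripts' sum.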
